A study of Rattus norvegicus with 16 samples.

Results

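The 5999 CpG-sparse windows of low methylation are stretches of 1 kb (1000 bp) in which few CpG cytosines were listed and most reads of them were unmethylated. They make up 5999 of 86065 windows of chromosomes 1 to 20 that held at least 3 sites with 10 or more reads in each of 10 libraries, where a site is a CpG cytosine on 1 strand. The windows were chosen by 2 measured values. At most 16 distinct CpGs could be listed in the window over the 10 libraries, and the level, the percentage of summed reads that were methylated, had to be under 40% on average in the 4 high-fat P7 libraries. Of the 86065 windows, 64008 met the limit on CpGs and 9831 the limit on the level. Levels of the high-fat P7 libraries, and any comparison with them, therefore describe the choice and received no test.

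DNA was read from the amygdala, microdissected from Long-Evans rats, female offspring of dams on a control or a high-fat diet. The high-fat dams ate that diet for 4 weeks before pregnancy, through gestation and while nursing. The offspring did not eat it, and those kept to adulthood were weaned to control diet. Libraries were made by reduced representation bisulfite sequencing, in which an enzyme cuts the genome at sites that contain a CpG and unmethylated cytosines are then converted. The windows rest on control P7 offspring (postnatal day 7, 4 libraries), high-fat P7 offspring (4 libraries) and control P90 offspring (postnatal day 90, replicates 1 and 2). These 10 libraries, set A, share a style of title. A further 6 libraries, set B, hold the 4 high-fat P90 offspring together with control P90 replicates 3 and 4. The amygdala was taken at different brain coordinates at the 2 ages, and whether libraries came from separate litters is not given, so p-values measure the spread between these libraries only. In bulk tissue, a change in the mix of cell types and a change of methylation within cells cannot be told apart.

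In mammals methylation is placed on the cytosine of CpG pairs, mostly on both strands, by DNA methyltransferases, and it can be removed stepwise after oxidation by TET enzymes. Most CpGs outside CpG islands are methylated in most cells. CpG islands, dense in CpG and often at promoters, are largely free of it. Sparse regions of low or partial methylation are known from promoters poor in CpG, from island shores and from enhancers, where binding of transcription factors goes along with low methylation. The brain also remodels its methylation between birth and adulthood. No annotation or genome sequence of the build of the files (Rnor_6.0) was used here, so no gene is named and no sequence shown, and which of these kinds a window belongs to was not analysed.

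The low sparse windows were mostly partly methylated rather than free of methylation. By the level in the high-fat P7 libraries that chose them, 396 (6.60%) lay under 10%, 1436 at 10 to 20%, 1943 at 20 to 30% and 2224 (37.1%) at 30 to 40%. The median was 26.05%, with quartiles at 17.9% and 33.2%. They listed 2 to 16 CpGs with a median of 9, and held 3 to 18 tested sites with a median of 4, which spanned a median of 124 bp. Each window thus stands for a short part of its 1 kb. In the 4 control P7 libraries, the median window had 164 reads per library.

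Windows just inside and just outside the limits had close values. The members with the level closest to the limit lay on chromosome 20, 22616001 to 22617000 (39.997%) and chromosome 5, 160161001 to 160162000 (39.995%). The nearest windows above it lay on chromosome 12, 47567001 to 47568000 (40.001%) and chromosome 18, 71933001 to 71934000 (40.008%). The 473 members at 38 to 40% had a mean of 40.1% in control P7 offspring, and the 503 sparse windows at 40 to 42%, which are not members, had 42.4%. The 305 low windows with 16 CpGs had 25.2% there, and the 291 with 17 CpGs, which are not members, had 25.1%.

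The files list only cytosines with at least 1 methylated read, which touches low windows more than others. Of the sites in the low sparse windows that reached 10 reads in some library, 26.3% were not listed in at least 1 of the 10 libraries. In sparse windows at 80% or more this was 5.34%. An unread site and a site whose reads were all unmethylated look the same in the files, so the levels here are those of sites with a methylated read in every library and leave out the least methylated sites. Likewise the count of CpGs holds CpGs with a methylated read in some library. CpG-sparse therefore means few listed CpGs, and a window with many CpGs that never showed a methylated read would also be counted as sparse. Levels over every site that a library listed with 10 or more reads were 25.8% instead of 26.4% in control P7 offspring. In control P90 offspring they were 33.2% instead of 34.1%. Those sites also had a methylated read in that library, so the effect of sites without any cannot be sized.

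The windows lay on all 20 autosomes, in similar proportion. They made up from 6.22% of the windows of chromosome 9 to 7.72% of those of chromosome 11. Most stood alone. Of 5999, 405 had another low sparse window beside them, in 198 runs of 2 windows and 3 runs of 3, and no run was longer. Among the 1675 neighbouring windows that could be measured, 24.4% were low and sparse as well, against 7.52% of all measured neighbours of any window. The share was also high beside CpG-dense windows, at 20.8% for those under 20% and 18.5% for those at 20 to 40%. Beside sparse windows at 40 to 80% it was 9.71%. A further 9.19% of the neighbours of low sparse windows were CpG-dense with a level under 20%, the pattern of CpG islands, against 3.33% for all windows. For CpG-dense windows under 20% and at 20 to 40% this share was larger, at 27.5% and 16.3%.

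A small part of the low sparse windows lay close to CpG-dense windows under 20%, and most did not. Of the low sparse windows, 221 (3.68%) were within 2 kb of a CpG-dense window under 20% and 1078 (18.0%) within 50 kb. For sparse windows at 80% or more these shares were 0.345% and 9.64%. CpG-dense windows at 20 to 40% were closer than the low sparse windows, with 8.70% and 27.9%. The median distance was 351 kb from low sparse windows, 443 kb from sparse windows at 40 to 80% and 533 kb from sparse windows at 80% or more. From CpG-dense windows at 20 to 40% it was 196 kb. These are distances to windows that the libraries covered, and islands that were not measured are not among them.

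**Figure D1:**
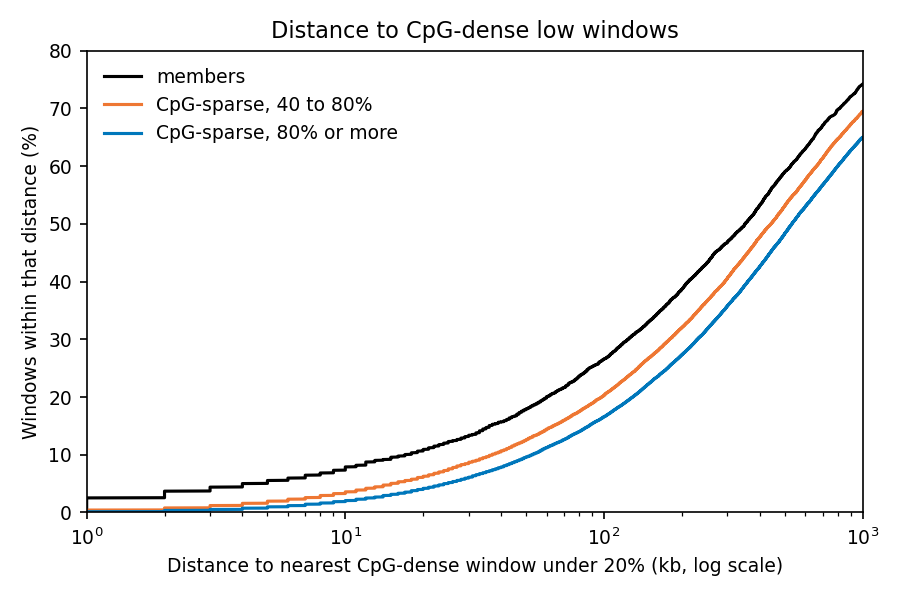
Share of windows (y axis, %) that lie within a given distance (x axis, kb, log scale) of the nearest CpG-dense window with a level under 20%, for the 5999 low sparse windows and for sparse windows at 40 to 80% and at 80% or more. The line of the low sparse windows runs above the others, at 18.0% against 12.6% and 9.64% at 50 kb, and most low sparse windows lie farther away than 50 kb.

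Within a window the sites were often unequal. In control P7 offspring the lowest and highest site of a window differed by a median of 21.6 points. The difference was under 10 points in 1011 windows (16.9%) and over 50 points in 608 (10.1%). Of the 28670 sites in the low sparse windows, 38.4% had a mean under 20%, 57.9% lay between 20 and 60% and 3.69% above 60%. At 3688 CpGs read on both strands in the same libraries, the 2 strands differed by a median of 4.76 points, with more than 20 points at 8.05%. The median of the plus minus the minus strand was 0.030 points. Across these CpGs, all of low windows, the strands correlated at r = 0.369, and across the 68239 CpGs of all windows, which span the whole range of levels, at r = 0.897.

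The mean level over all 5999 windows was 28.2%, 24.2%, 26.1% and 27.0% in control P7 replicates 1 to 4. In high-fat P7 replicates 1 to 4 it was 26.7%, 27.1%, 21.5% and 25.7%, and in control P90 replicates 1 and 2 it was 33.7% and 34.5%. Both adult libraries lay above the 4 control P7 libraries. High-fat replicate 3 was the lowest of all, and control P7 replicate 2, which had the fewest reads, was the lowest of its group. The same libraries were lowest in their groups over all 86065 windows, at 74.1% and 75.1%. Group means were 26.4% ± 1.69 (SD, n = 4) in control P7, 25.3% ± 2.56 (SD, n = 4) in high-fat P7 and 34.1% ± 0.537 (SD, n = 2) in control P90 offspring. Windows above 50% numbered 47 to 124 in a control P7 library and 818 and 876 in the adult libraries.

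**Figure D2:**
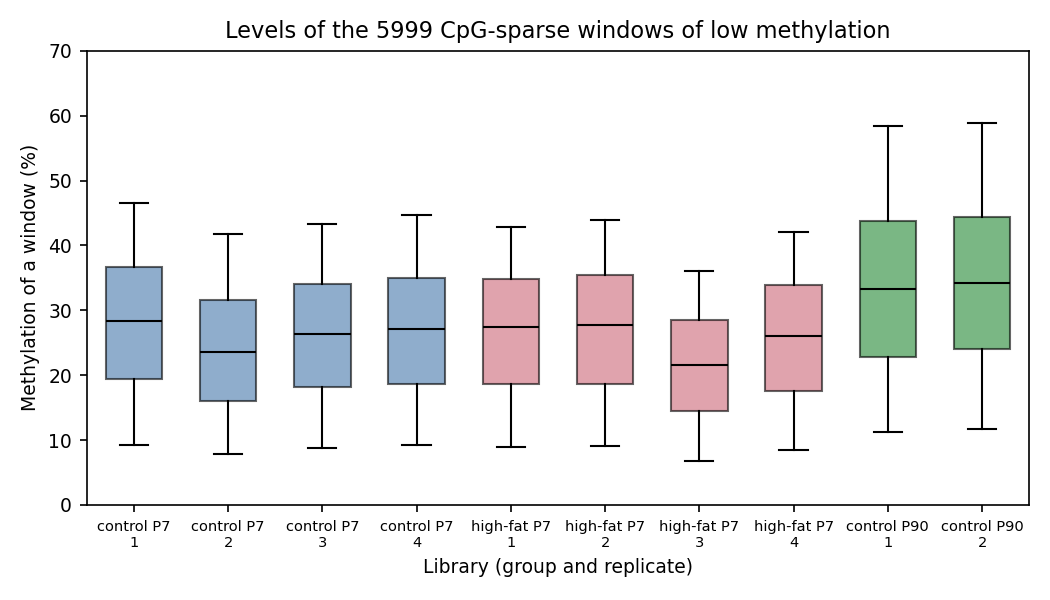
Level of the 5999 low sparse windows (y axis, % methylated reads) in each of the 10 set A libraries (x axis). Boxes show the quartiles with the median as a line, and whiskers the 5th and 95th percentiles of windows. Medians are 23.6% to 28.4% in control P7, 21.5% to 27.7% in high-fat P7, and 33.3% and 34.1% in control P90 libraries.

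Depth at these windows and methylated reads on mitochondrial DNA were compared between the libraries. Median reads per site were 28 to 44 in control P7 and 40 and 44 in control P90 libraries. On mitochondrial DNA, taken to be nearly free of methylation, 0.296% to 0.336% of reads at listed CpGs were methylated in control P7 libraries. In control P90 libraries these were 0.276% and 0.285%. Listed CpGs had at least 1 methylated read, so these values are not a rate of conversion. Conversion at the low sparse windows was not tested. Across the 10 libraries, 0.337% to 2.80% of member sites with 10 reads in all the others were unlisted, with the highest share in control P7 replicate 2.

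Between postnatal day 7 and day 90 of control offspring, the level of the low sparse windows was mostly higher in adults. The counts hold methylated and unmethylated reads only, so oxidized forms of methylated cytosine were not counted apart. The comparison used the 4 control P7 libraries and control P90 replicates 1 and 2. The limit on the level did not use these libraries, but the choice of sites and the count of CpGs did. Each site needed a methylated read in every set A library, so a site without any in a control pup or adult was left out. Sites that lost all methylated reads in an adult are thus missing. How far this shaped the counts of higher and lower windows was not tested. Of 5999 windows, 1946 (32.4%) were called higher and 124 (2.07%) lower at P90 (logistic model of read counts per window with moderated dispersion, adjusted p under 0.05 over all 86065 windows). Among all windows 7.6% were called higher and 5.18% lower. The median change was 7.03 points, with quartiles of 1.01 and 14.3 points, against 0.518 points over all windows. Both adult libraries lay above all 4 P7 libraries in 2875 windows (47.9%) and below all of them in 346 (5.77%), where all windows had 18.2% and 12.4%.

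These counts depend on the age at which low windows are chosen. The rule took windows that were low at P7, in pups of the other diet, so a window that was low at P7 and higher in adults could enter, and one that was high at P7 and low in adults could not. A choice added after these values were seen took sparse windows by the mean of the control P7 and control P90 levels, under 40%. Of its 5062 windows, 1302 (25.7%) were called higher and 207 (4.09%) lower, with a median change of 4.87 points. Chosen by the control P90 level alone, 4576 windows held 785 (17.2%) called higher and 381 (8.33%) called lower, with a median change of 2.30 points. Among all windows 7.6% were called higher and 5.18% lower. The share called lower was thus below that of all windows under the choice by both ages, and above it under the P90 choice. Windows chosen on 1 adult library and measured in the other changed by a median of 3.04 and 2.37 points. Under the choices by both ages and by P90, more windows were called higher than lower, with the 2 counts closer together than under the choice by P7 levels. The 2 rules that used adult levels used the tested libraries, so these counts are descriptions.

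**Figure D3:**
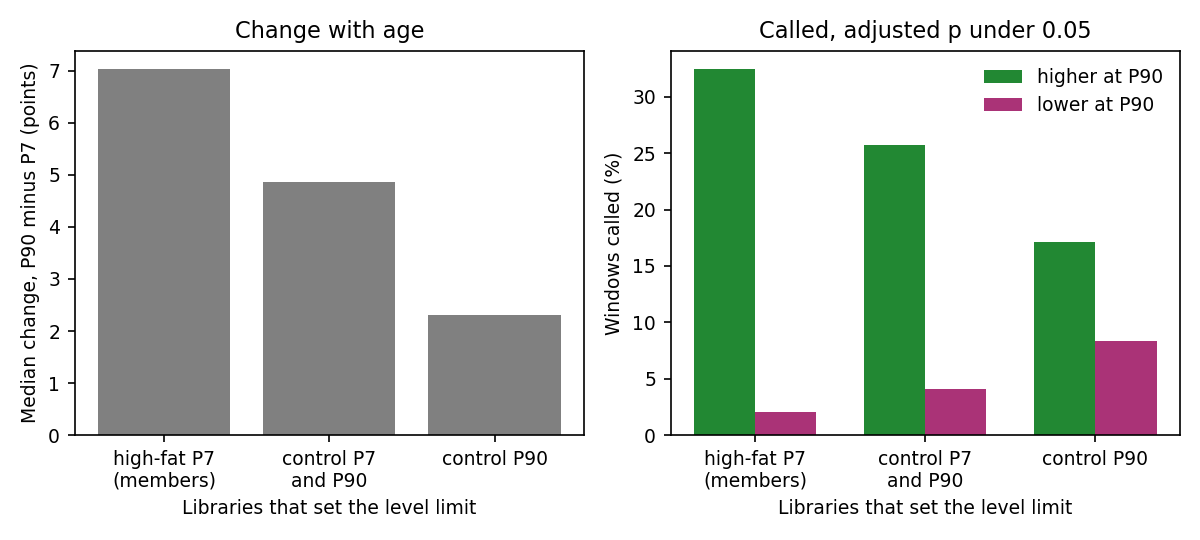
Median change from control P7 to control P90 (left, y axis in points of methylation) and share of windows called higher or lower at P90 (right, y axis in %), for sparse windows under 40% in the high-fat P7 libraries, in the mean of control P7 and control P90, or in control P90 (x axis). The median change is 7.03, 4.87 and 2.30 points, and the share called lower is 2.07%, 4.09% and 8.33%.

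The test rests mainly on a spread shared between windows. The shared estimate carried a median of 34.9 degrees of freedom, a window's own spread 4. With each window's own spread alone, 0 windows of any kind were called, while 2093 low sparse windows had an unadjusted p under 0.05 and were higher at P90, and 171 were lower. Over all windows 12857 had an unadjusted p under 0.05 in that fit. Leaving out control P90 replicate 2, which leaves a single adult library, brought the windows called higher to 1198 and those called lower to 81, where all windows had 4.31% and 3.21%. Without control P90 replicate 1 these were 1306 and 62, where all windows had 4.58% and 3.15%.

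The windows called higher changed from a median of 24.8% in control P7 to 43.8% in control P90 offspring, by a median of 17.5 points. Of them 693 gained 20 points or more, and 655 ended above 50%. The windows called lower went from 32.2% to 16.6%, by a median of -14.1 points and at most -30.2 points. In 1781 of the windows called higher (91.5%) each tested site was higher at P90, and in 110 of those called lower (88.7%) each was lower. The call is made from the same sites. Over all 5999 low sparse windows each site was higher in 49.3% and each was lower in 7.37%, against 16.7% and 11.3% of all windows. At the 3688 CpGs of low sparse windows read on both strands, called or not, the median change was 7.72 points on either strand. Of the 204 pairs of adjacent low sparse windows, 41 had both windows called, 40 of them higher in both and 1 lower in both. In 68 pairs 1 window was called. Most called low sparse windows were higher, and adjacent pairs over all windows were not counted, so these counts are a description.

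The change was largest in the middle of the range of levels. By the level in high-fat P7 libraries, the median change was 4.73 points in windows under 10%, 7.04 at 10 to 20%, 8.19 at 20 to 30% and 6.88 at 30 to 40%. It was 5.55 points in sparse windows at 40 to 50%, 1.09 at 60 to 70% and -0.165 at 80 to 90%, so no step marked the limit of 40%. The share called higher was 36.4%, 37.0%, 34.1% and 27.3% in the 4 groups of low windows. The share called lower was 0.253%, 1.46%, 2.01% and 2.83%. CpG-dense windows under 20% changed by a median of 5.24 points, with 37.4% called higher and 1.08% lower, and CpG-dense windows at 20 to 40% by 5.34 points, with 28.7% and 2.31%. A difference between the dense and sparse windows was not tested.

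**Figure D4:**
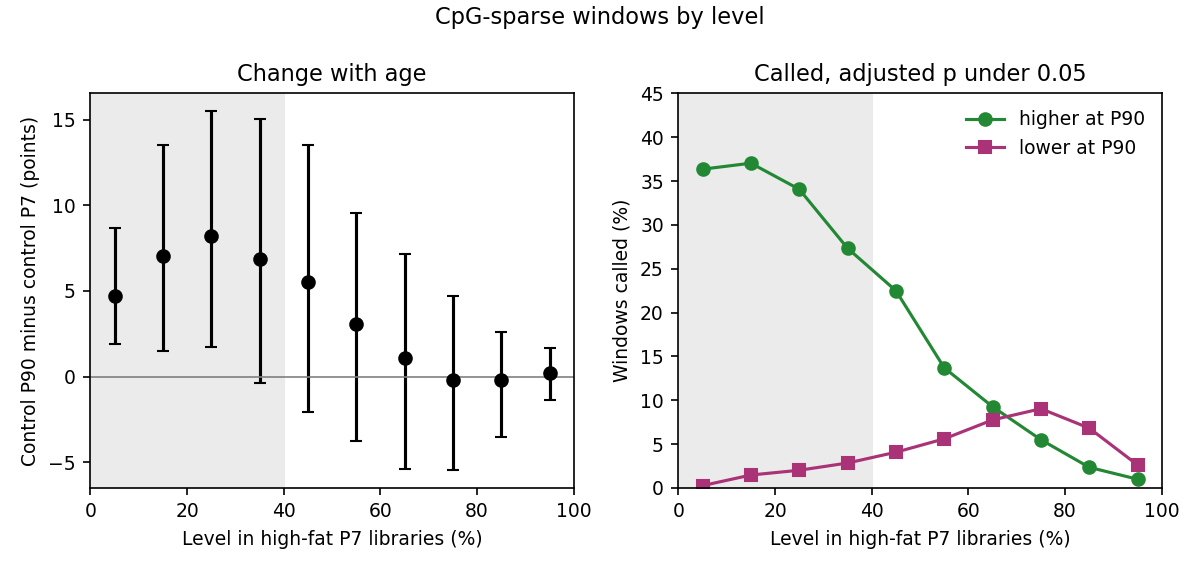
CpG-sparse windows in bins of their level in the high-fat P7 libraries (x axis, %), with low windows on grey. Left, median change from control P7 to control P90 with quartiles as bars (y axis, points). Right, share of windows called higher or lower at P90 (y axis, %). The change peaks at 8.19 points in the bin of 20 to 30%, and more windows are called lower than higher only in the bins from 70% up.

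Calls also followed the depth of a window, while the size of the change did not. Split into 4 equal parts by mean reads per library, from 37.5 to 123 reads in the lowest to 241 and more in the highest, the share called higher was 20%, 31.2%, 36.5% and 42.1%. The median change was 6.81, 7.24, 7.02 and 7.14 points. By number of CpGs listed the change differed little, from 7.82 points with up to 4 CpGs to 6.63 points with 13 to 16. Within 2 kb of a CpG-dense window under 20%, 81 of 221 windows (36.7%) were called higher and 0 lower. At 3 to 50 kb, 256 of 857 (29.9%) were called higher and 18 (2.10%) lower. Beyond 50 kb, 1609 of 4921 (32.7%) were called higher and 106 (2.15%) lower. With distance, the share called higher thus followed no single direction, and the share called lower was lowest within 2 kb. The share called higher ran from 22.7% on chromosome 20 to 37.8% on chromosome 15, and the median change was positive on all 20 chromosomes.

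The 6 windows with the smallest p among those called higher gained 24.996 to 44.4 points. Positions are those of Rnor_6.0. At 47815001 to 47816000 of chromosome 20, measured at 5 sites with 143 to 415 reads in a library, control P7 libraries had 25.4%, 36.4%, 27.5% and 34.2% and control P90 libraries 74.3% and 75.4%. The 4 control pups did not overlap with the adults. High-fat P7 libraries, part of the choice, had 20.2% to 29.9%. The change was 44.0 points (adjusted p = 7.04e-10). A single CpG of this window, at 47815207 on the minus strand, went from 25.5% ± 3.36 (SD, n = 4) to 78.5% ± 2.06 (SD, n = 2).

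On chromosome 2, 236085001 to 236086000 (11 sites), the pups had 22.8%, 16.4%, 16.5% and 19.7% and the adults 70.8% and 55.6% (adjusted p = 7.04e-10). The adults were apart from each other by more than the 4 pups were. The 11 sites covered positions 236085215 to 236085570 on both strands, and each was higher in adults, by 30.7 to 61.2 points. At 236085503 on the plus strand the level was 6.21% ± 4.50 (SD, n = 4) in pups and 52.3% ± 16.1 (SD, n = 2) in adults.

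On chromosome 7, 124605001 to 124606000 (10 sites), the level was 38.3%, 34.0%, 32.4% and 36.8% in pups and 67.7% and 71.1% in adults (adjusted p = 9.90e-10). A second window of this chromosome, 138037001 to 138038000 (7 sites), had 24.3%, 18.1%, 19.9% and 23.5% in pups and 58.3% and 51.1% in adults (adjusted p = 5.16e-09). In both, each site was higher in adults, by 18.5 to 46.4 points in the first and 23.5 to 43.1 points in the second.

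On chromosome 1, 204671001 to 204672000 (9 sites) held 34.3%, 25.8%, 34.8% and 34.6% in pups and 70.03% and 74.1% in adults (adjusted p = 1.55e-09). The window at chromosome 2, 32590001 to 32591000 (11 sites) began lowest of the 6, with 18.0%, 14.8%, 17.2% and 14.4% in pups, and reached 41.2% and 40.9% in adults (adjusted p = 4.46e-09). Its CpG at 32590048 went from 27.9% to 70.7% on the plus strand, and on the minus strand, at 32590049, from 33.1% to 67.9%. Its site at 32590180 went from 9.51% to 29.5%, so a rise was found in sites that were low and in those that were less low.

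The 4 windows with the smallest p among those called lower lost 20.7 to 30.2 points. At 71121001 to 71122000 of chromosome 13, measured at 8 sites with 122 to 372 reads in a library, control P7 libraries had 36.6%, 41.8%, 36.5% and 32.2% and control P90 libraries 4.41% and 8.67% (adjusted p = 4.91e-08). High-fat P7 libraries ranged from 23.3% to 41.9%. The 8 sites lay between 71121694 and 71121775 and fell by 23.7 to 36.9 points, so that each was under 10% in adults.

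Chromosome 5, 79569001 to 79570000 (6 sites) held 31.9%, 28.4%, 39.3% and 29.6% in pups and 10.2% and 12.96% in adults (adjusted p = 9.55e-06). Chromosome 19, 41380001 to 41381000 (6 sites) held 45.7%, 57.2%, 46.5% and 40% in pups and 18.4% and 18.9% in adults (adjusted p = 2.13e-05). All 4 control pups there were at or above the 40% that the high-fat pups had to stay under on average. Its sites fell by 9.61 to 40.8 points, most of all the 3 on the minus strand. Chromosome 6, 33688001 to 33689000 (5 sites) held 42.9%, 37.1%, 35.6% and 36.6% in pups and 13.7% and 16.9% in adults (adjusted p = 2.57e-05).

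**Figure D5:**
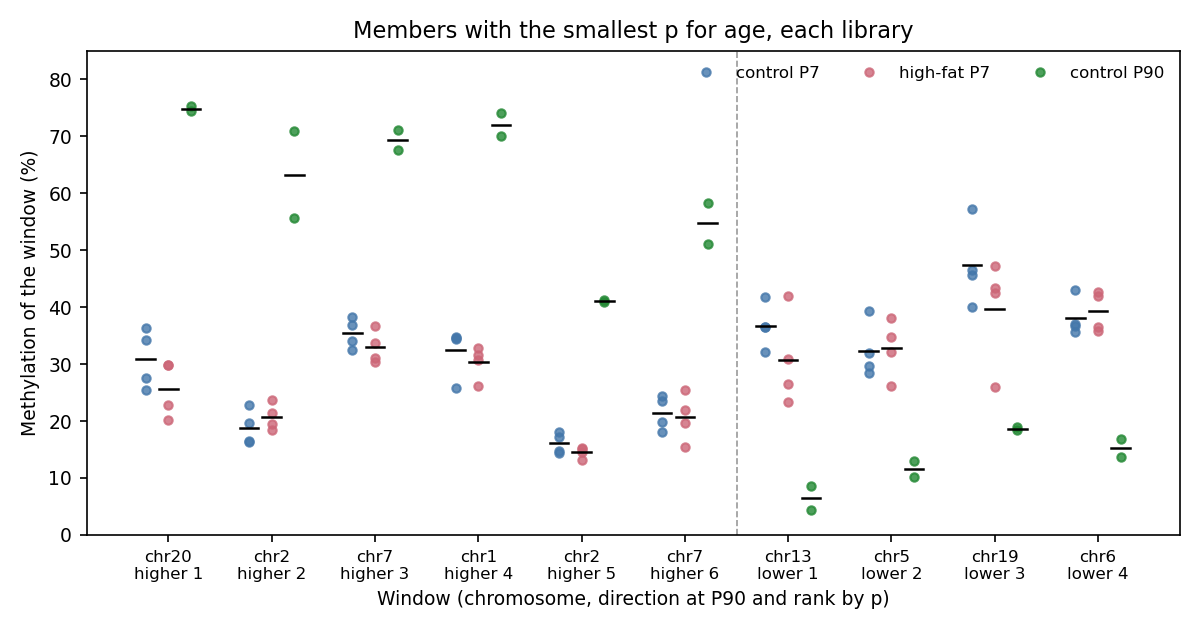
Level (y axis, % methylated reads) in each library of the 6 low sparse windows called higher and the 4 called lower at P90 with the smallest p (x axis). Points are libraries of control P7 (n = 4), high-fat P7 (n = 4) and control P90 (n = 2) offspring, and black bars are group means. The windows were picked for a small p between control pups and adults, and the high-fat pups took part in the choice. Adults range from 40.9% to 75.4% in windows called higher and from 4.41% to 18.9% in those called lower.

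Along the longest runs of adjacent low sparse windows the differences with age were unequal. On chromosome 10, 95999001 to 96002000, the 3 windows changed by 4.49, 24.2 and 20.9 points, and the last 2 were called higher. The last, 96001001 to 96002000 (13 sites), had 13.1%, 12.97%, 9.95% and 14.9% in control P7 and 37.3% and 29.9% in control P90 libraries (adjusted p = 1.46e-07). On chromosome 13, 71146001 to 71149000, the changes were 25.2, 26.9 and 4.91 points, with the first 2 called higher. This run lies at higher coordinates of the same chromosome than the window at 71121001 to 71122000, which was called lower. On chromosome 10, 16218001 to 16221000, the changes were -6.68, 3.01 and -0.605 points and none was called.

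The 4 windows with the lowest level in high-fat pups stayed low in adults. Chromosome 13, 89439001 to 89440000 (6 sites, 2252 to 4035 reads) had 1.05% ± 0.148 (SD, n = 4) in control P7 and 1.18% ± 0.0850 (SD, n = 2) in control P90 offspring and was not called. Chromosome 19, 28660001 to 28661000 went from 2.14% ± 0.668 to 6.45% ± 1.06 (adjusted p = 0.000170), and chromosome 4, 77452001 to 77453000 from 2.68% ± 0.749 to 6.75% ± 0.620 (adjusted p = 0.000253). Chromosome 1, 23913001 to 23914000 had 4.42% ± 1.70 and 6.29% ± 2.29 and was not called.

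Spread between libraries was moderate in most of the windows and large in a few. The SD between the 4 control P7 libraries had a median of 4.21 points, and the dispersion, the variance over that of binomial counts, a median of 1.71. Over all windows the dispersion was 1.34. Control P7 libraries had the largest SD on chromosome 3, 154043001 to 154044000, with 31.8%, 52.03%, 100% and 32.7%. At 154046001 to 154047000 on the same chromosome they had 38.0%, 42.3%, 80.1% and 34.8%. Both high values belong to replicate 3, while the 6 other set A libraries had 25.8% to 41.5% in the first and 27.3% to 46.7% in the second. On chromosome 8, 60735001 to 60736000, the control P7 libraries had 21.8%, 52.5%, 57.3% and 14.4% and high-fat replicate 1 had 83.3%. On chromosome 16, 21255001 to 21256000, they had 52.6%, 23.9%, 22.2% and 58.5%, at 2 levels that both diets showed, since high-fat replicate 3 had 48.6% and the other high-fat libraries 20.9% to 28.9%.

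Neither the window with the most sites nor that with the most reads was called. Among the low sparse windows as a set, the deepest part by reads had the largest share called higher, at 42.1%. The window with the most sites, chromosome 20, 4767001 to 4768000 (18 sites), had 26.7%, 22.2%, 33.4% and 28.2% in control P7 and 36.5% and 32.1% in control P90 libraries (adjusted p = 0.134). The window with the most reads, chromosome 19, 56336001 to 56337000 (4683 to 8114 reads), had 21.4%, 32.2%, 38.03% and 10.1% in control P7 and 37.5% and 39.5% in control P90 libraries. Its adjusted p was 0.549, and the pups were spread widely, with 1 of them inside the adult range.

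Diet at P7 is described without a test, because the high-fat libraries chose the windows. The choice itself favours windows in which those libraries were low. Control pups had the higher mean in 3763 of the 5999 windows (62.7%), with a median difference of 0.935 points, against 55.5% and 0.298 points over all windows. All 4 control libraries lay above all 4 high-fat libraries in 138 windows and below them in 24. Over all windows these shares were 1.69% and 1.09%, from 1454 and 936 windows. The largest difference in favour of control was on chromosome 19, 47200001 to 47201000, with 69.8%, 59.1%, 51.1% and 67.4% in control and 46.1%, 38.5%, 40.5% and 25% in high-fat pups. On chromosome 15, 24598001 to 24599000 the means were 58.1% and 37.7%. In the other direction, chromosome 10, 93321001 to 93322000 held 12%, 12.5%, 18.9% and 20% in control and 38.5%, 34.3%, 34.1% and 22.9% in high-fat pups. On chromosome 4, 112648001 to 112649000, control libraries had 6.43% to 16.3%, and the high-fat libraries split into 12.5% and 13.1% against 45.6% and 49.1%. The adults there had 8.77% and 42.7%, so the same 2 levels were found within both groups.

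The 6 set B libraries covered few of these windows. With 3 sites of 10 reads, they reached 1467 windows (24.5%) in control P90 replicate 3 and 234 to 638 in the others. Their mean level there was 66.1% to 76.9%, where the set A adults had 34.9% to 37.5% in the same windows. From 21.1% to 56.0% of windows in a set B library lay at 95% or more, against at most 0.0167% in set A. Control P90 replicates 3 and 4 gave 66.1% and 73.8%, at the same age and diet as the set A adults. Methylated reads on mitochondrial DNA were 1.21% to 6.35% in set B. Set B values were therefore not used for the comparison with age, and the high-fat P90 offspring, all in set B, were not compared.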

How the data were processed

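Each of 16 files lists the CpG cytosines of 1 library with counts of methylated and unmethylated reads as deposited by the authors, without normalization. Libraries were made with the Ovation RRBS Methyl-Sequencing kit per the labels' protocols. The submitters' processing notes name Rnor_6.0 as the build. The version of the aligner was not given in the sources used here. Set A libraries held 22087054 to 63677193 reads at listed sites and set B libraries 7802161 to 21333037. The counts carry no molecular identifiers, so whether reads come from independent molecules cannot be told.

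Reads of sites with at least 10 reads in all 10 set A libraries were summed per 1 kb window with at least 3 such sites. Age was tested in every window, with reads summed over its sites, by a logistic model and a deviance F test, which is two-sided. The Pearson dispersion was moderated over windows with a trend in coverage and level (R 4.3.3, limma 3.58.1, mgcv 1.9.3) and never set below 1. P-values were adjusted by the method of Benjamini and Hochberg over all windows. The test was checked on simulated data. edgeR 4.0.16 served as an alternative, and joins used pandas 2.3.3, numpy 2.4.6 and Python 3.11.15.

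Named windows are those with the smallest p in each direction, the lowest level, the largest spread, the most sites or reads, the largest diet difference, the longest runs, and those at the limit of the level. The members and lists were chosen with earlier results of these data known.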

Additional observations from a re-analysis of the deposited data

Results flagged for a closer look

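In 6 of 78 groups of 4 libraries, the highest or lowest library stood apart from the other 3 by Dixon's test. The groups were the 2 P7 diets at 37 named windows (74 groups) and in the mean and median over all low sparse windows (4 groups). Chance flags about 1 in 20 groups, a rate that does not hold for windows named for a large spread or a diet difference, among them those on chromosomes 3 and 8 here. Among control P7 libraries, replicate 2 was low at chromosome 1, 204671001 to 204672000 (25.8%), and replicate 3 was high at chromosome 3, 154046001 to 154047000 (80.1%) and at chromosome 10, 96000001 to 96001000 (40.2%). Among high-fat P7 libraries, replicate 1 was high at chromosome 4, 77452001 to 77453000 (2.83%) and at chromosome 8, 60735001 to 60736000 (83.3%), and replicate 4 was low at chromosome 19, 56336001 to 56337000 (8.33%).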

How the results depend on the processing

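In these alternatives the median change stayed positive, and more low sparse windows were called higher than lower wherever any were called. With at least 5 sites per window, 2534 windows were members, of which 955 (37.7%) were called higher and 58 (2.29%) lower. All windows had 9.58% and 6.39% there. limma on log2 ratios called 1043 (17.4%) higher and 48 (0.800%) lower, where all windows had 3.99% and 1.89%. Each window's own dispersion called 0 and 0, over all windows as well. A level under 30% or 20% left 3775 or 1832 members. Choosing windows by the mean of both ages gave 207 called lower and a median change of 4.87 points. For this choice and the next, all windows had 7.60% called higher and 5.18% lower. Choosing by the P90 mean gave 785 higher, 381 lower and 2.30 points, and choosing on 1 adult library gave 3.04 and 2.37 points in the other; these choices were added after seeing the data. The level in control P90 offspring was 33.2% over every listed site and 34.9% as a mean over sites. Leaving out 1 library at a time gave 1198 to 2013 windows called higher and 62 to 145 called lower, and a median change of 6.41 to 7.65 points. Control P7 and control P90 replicates 1 and 2 share the numbers 3 and 4 in their titles. With these numbers as a replicate block, 1201 windows were called higher and 55 lower, where all windows had 4.63% and 3.05%. Control P7 replicates 3 and 4 have numbers that no adult shares. In this fit the comparison of ages thus rests only on the libraries numbered 3 and 4. The deviations of same-numbered libraries correlated at -0.00388 and -0.0613. With 2 adult libraries their deviations are exact opposites, so these values cannot tell whether same-numbered libraries are related. Further alternatives were at least 20 reads per site, an upper limit on coverage, merged strands, edgeR and a minimum of 10 points. They gave 1504 to 1947 called higher and 87 to 124 lower, where all windows had 6.11% to 10.6% and 3.81% to 5.53%. The causes were not tested. Sites under 10 reads and sites with no methylated read in some library are outside these levels, which limits the lowest windows most.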
